A study of Mus musculus with 16 samples.

Results

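Retinoid genes were followed in mouse liver through 9 members chosen by gene symbol: Cyp26a1, Rdh9, Rdh16, Dhrs3, Dhrs4, Aldh1a7, Lrat, Rbp4 and Rarb. Every probe annotated to one of these symbols was taken, which gave 11 of the 25697 probes on the array: 3 for Rarb and 1 for each other gene. Of the 9 genes, 7 had a probe bright enough to be tested among 8386 genes, and Dhrs3 and Lrat did not. The livers came from 16 male C57BL/6 mice in 4 groups of 4, and their RNA was read on 1-colour Illumina BeadChips, in which bead-bound probes capture labelled cRNA. Garlic oil mice drank a Lieber-DeCarli liquid diet with ethanol and were gavaged daily for 4 weeks with 50 mg/kg of garlic oil, a mixture of allyl sulfides. DADS mice drank the same ethanol diet and were gavaged on the same schedule with diallyl disulfide (DADS), a single sulfur compound found in garlic, at 15 mg/kg. Alcohol mice drank the ethanol diet, and control mice were pair-fed a liquid diet that held no ethanol. All 4 groups received 0.1 ml of olive oil by gavage as the vehicle. The ethanol diet serves as a model of alcoholic fatty liver, and the labels describe the samples of a group as biological replicates.

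Retinol, or vitamin A, reaches the liver from the gut and is stored there as retinyl esters, mostly in the lipid droplets of stellate cells. Retinol leaves the liver bound to the plasma carrier RBP4, or is oxidized to retinal and then to retinoic acid, the ligand of the nuclear receptors RARA, RARB and RARG. CYP26 enzymes break retinoic acid down, and Cyp26a1 and Rarb are classical targets of the receptors, with a retinoic acid response element close to their start sites.

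The windows from 250 bases before to 50 bases after an annotated start of Cyp26a1 and of Rarb are shown. They alone, among 12 windows of the 9 genes, held such an element. The element searched on both strands was a direct repeat of the half-site AGGTCA, its variant AGTTCA, its variant GGTTCA or its variant GGGTCA, in any pairing, with NNNNN between the copies. It was found in 0.0974% of 32851 mouse windows of the same length. Repeats with N or NN between the copies occurred in none of the 12 windows, against 0.222% and 0.268% of all windows. The sequences are from RefSeq on GRCm38.p6, written along each gene's own strand, with the repeat in capitals.
Cyp26a1, chr19:37697558-37697857, plus strand: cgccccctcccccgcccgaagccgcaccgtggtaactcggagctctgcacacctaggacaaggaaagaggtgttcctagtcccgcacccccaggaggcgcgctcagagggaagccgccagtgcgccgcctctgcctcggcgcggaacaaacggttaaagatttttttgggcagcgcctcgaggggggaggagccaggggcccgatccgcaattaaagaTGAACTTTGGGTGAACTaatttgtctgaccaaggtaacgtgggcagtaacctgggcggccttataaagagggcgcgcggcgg
Rarb, chr14:16575427-16575726, minus strand: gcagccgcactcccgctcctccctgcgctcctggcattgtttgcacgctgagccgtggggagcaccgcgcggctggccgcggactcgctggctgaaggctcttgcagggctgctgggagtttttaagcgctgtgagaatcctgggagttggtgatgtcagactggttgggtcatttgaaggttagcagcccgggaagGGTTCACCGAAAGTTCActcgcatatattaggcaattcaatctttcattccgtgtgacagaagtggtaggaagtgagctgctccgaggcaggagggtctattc
In Cyp26a1 the repeat lay between 32 and 16 bases before the start used for its window and read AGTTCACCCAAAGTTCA on the opposite strand. The annotated gene begins at base 37697738, ahead of that start, so the repeat lies within the annotated gene. In Rarb the repeat lay between 53 and 37 bases before the start used and read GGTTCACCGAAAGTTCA along the gene's strand. That start is internal, as the annotated gene runs from 16430839 to 17082331, and no other Rarb start was searched. A match of letters describes the window and shows no binding. Retinoid members also lie near each other: Rdh9 and Rdh16 are neighbours on chromosome 10 with 8392 bases between them, and Cyp26a1 and Rbp4 lie 415083 bases apart on chromosome 19.

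Each array detected between 10631 and 11526 probes, and any pair of arrays of 1 group had a Pearson r of 0.973 to 0.993. Precision is limited by having 4 arrays in a group. By the names of the array files, the garlic oil and DADS arrays shared 1 chip and the alcohol and control arrays the other. By the same names, each group held its own block of positions within a chip, so position and group cannot be told apart. Of 10 hepatocyte markers 9 had a probe, and all 9 were detected on every array. Pancreatic acinar genes stood apart on 1 array: the summed normalized signal of 11 such genes was 501700 on alcohol replicate 1, against 914 to 2674 on the other 15 arrays. Changes against alcohol that passed are therefore also given without that array. The sum of 2 red cell genes was 46710 to 54090 in garlic oil, 14210 to 20180 in DADS and 17050 to 28210 in alcohol mice, against 29730 to 32070 in control mice, and its part in the results was not tested. Fewer cells of a type and less RNA per cell cannot be told apart in whole liver.

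Cyp26a1, the enzyme that breaks down retinoic acid, was higher in all 3 ethanol-fed groups than in control mice. Its normalized log2 intensity was 7.52, 6.70, 7.47 and 7.21 in garlic oil mice and 7.64, 7.47, 7.62 and 7.99 in DADS mice. It was 9.01, 8.16, 7.83 and 8.51 in alcohol mice, against 5.24, 6.35, 5.96 and 5.05 in control mice. No ethanol-fed mouse overlapped with a control mouse, and alcohol replicate 1 was the highest of all. The scanner signal, before any correction, ran from 166.5 to 276.5 in garlic oil, from 288.9 to 311.7 in DADS and from 266.2 to 572.2 in alcohol mice, against 94.5 to 146.3 in control mice. The probe was detected on all 12 ethanol-fed arrays and on 2 of 4 control arrays, so the control level lies near the detection limit of the array.

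**Figure D1:**
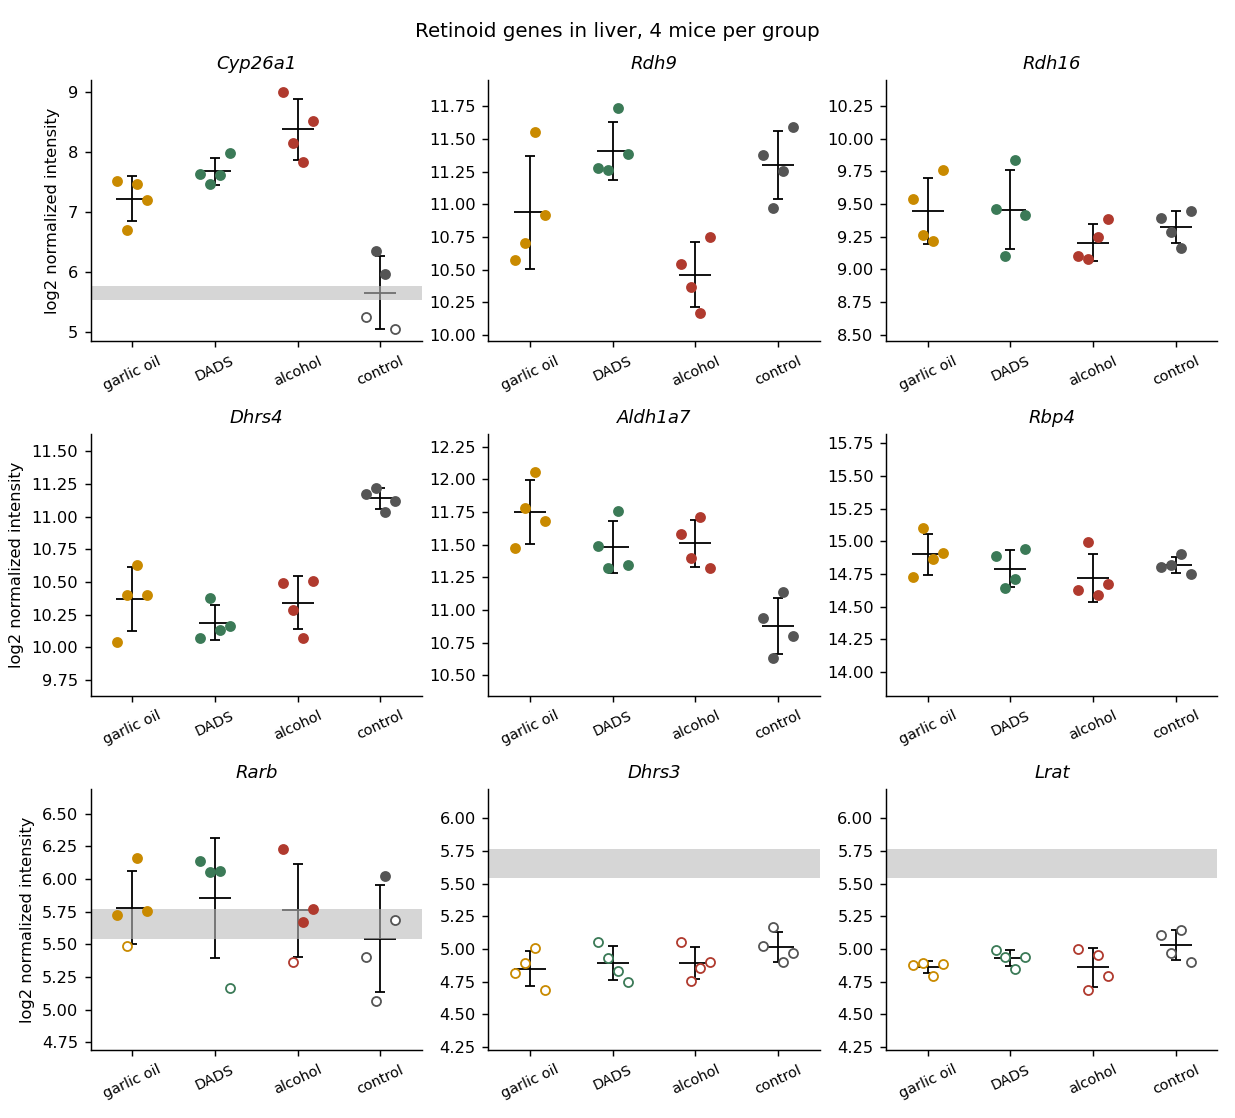
Normalized log2 intensity of the 9 retinoid genes on each of the 16 liver arrays, by group. Points are single mice (filled where detected, open where not), bars are the mean and SD of 4 mice, and the grey band, drawn for the 4 dim genes, is the range of the arrays' detection limits (5.54 to 5.77); every control mouse lay below every ethanol-fed mouse for Cyp26a1 and Aldh1a7 and above every one for Dhrs4.

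Alcohol was set against control to ask what ethanol feeding changed, and here both groups shared a chip. Of the 7 tested retinoid genes 4 changed, 2 upward and 2 downward, where 3.58% of all 8386 genes changed (1.94% rose and 1.63% fell). The same 4 had groups that did not overlap, as did 12.7% of all genes. The genes were chosen with results of these arrays known, so this share is no independent evidence. Changes are log2 differences ± SE from limma with n = 4 mice per group, and a gene rose or fell where the Benjamini-Hochberg adjusted p over all genes was under 0.05. The median change of the 7 was -0.10, beside -0.01 over all genes, and the median size without sign was 0.63, beside 0.17 over all genes.

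Cyp26a1 rose by 2.72 ± 0.28 in alcohol over control mice (6.61-fold, adjusted p = 2.34e-05), or 5.4-fold when undetected control arrays were set to their detection limit. Without the acinar-rich alcohol array the rise was 2.51 ± 0.28 (adjusted p = 8.2e-05). The size depended on the processing: it was 2.72 in the main fit, 1.76 without background correction and up to 3.21 in the other alternatives. The gene passed in every alternative run.

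Of the retinol-oxidizing enzymes, Rdh9, a short-chain dehydrogenase that oxidizes retinol, read 10.54, 10.37, 10.17 and 10.75 in alcohol mice, against 11.37, 10.97, 11.25 and 11.59 in control mice. Every alcohol mouse was below every control mouse. Rdh9 fell by 0.84 ± 0.20 (1.79-fold lower in alcohol mice, adjusted p = 0.0252), and by 0.868 ± 0.218 without the acinar-rich array (adjusted p = 0.0451). This call was lost without alcohol replicate 3, control replicate 1, control replicate 3 or control replicate 4, at adjusted p between 0.0526 and 0.0976, and the fall was then between 0.741 and 0.855. It was also lost with no detection filter (adjusted p = 0.0551). Rdh16, its neighbour in the genome and a retinol dehydrogenase of the same family, had overlapping groups, with 9.21 ± 0.14 in alcohol and 9.32 ± 0.125 in control mice (SD, n = 4 each). Its change was -0.12 ± 0.16 (95% interval -0.45 to 0.21, adjusted p = 0.74). The retinol dehydrogenases of this cluster are alike in sequence, and the probe sequences were not used here, so cross-reaction between members is uncertain. Among other retinol dehydrogenases on the array, the change was 0.36 ± 0.18 for Rdh7, 0.00 ± 0.19 for Rdh1 and 0.37 ± 0.16 for Rdh19. None of the 3 passed (adjusted p = 0.297, 0.996 and 0.226). Rdh19 was near the detection limit, detected on 3 of 4 alcohol and 0 of 4 control arrays. Rdh5 was lower in alcohol than in control mice, at 9.35 ± 0.20 against 9.775 ± 0.25 (SD, n = 4 each), and did not pass.

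Dhrs4, a peroxisomal dehydrogenase/reductase that acts on retinol and retinal, read 10.49, 10.29, 10.07 and 10.50 in alcohol mice, against 11.18, 11.22, 11.03 and 11.12 in control mice. The groups did not overlap, and the 4 control mice lay close together. Dhrs4 fell by 0.80 ± 0.14 (1.74-fold lower in alcohol mice, adjusted p = 0.00312) and passed whichever single array was left out, at -0.85 ± 0.15 without the acinar-rich one (adjusted p = 0.00494). Aldh1a7, a cytosolic aldehyde dehydrogenase and close relative of the retinal dehydrogenase Aldh1a1, read 11.58, 11.40, 11.72 and 11.32 in alcohol mice, against 10.94, 10.64, 11.14 and 10.80 in control mice. Again no mouse overlapped. Aldh1a7 rose by 0.63 ± 0.15 (1.55-fold, adjusted p = 0.0284). That call was lost without alcohol replicate 1, alcohol replicate 3, control replicate 1, control replicate 2 or control replicate 4, at adjusted p between 0.064 and 0.107 and a rise between 0.546 and 0.646. Without alcohol replicate 1, the acinar-rich array, the rise was 0.60 ± 0.17 (adjusted p = 0.0647), and with median scaling it was 0.61 ± 0.17 (adjusted p = 0.0639). Aldh1a1 itself changed by 0.31 ± 0.15 (adjusted p = 0.286), and whether each probe also captures the other gene's RNA was not tested.

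Rbp4, the plasma carrier of retinol made by hepatocytes, had overlapping values in both groups. Its level was 14.72 ± 0.19 in alcohol and 14.82 ± 0.06 in control mice (SD, n = 4 each), a change of -0.10 ± 0.12 (95% interval -0.35 to 0.16, adjusted p = 0.732). Ttr, which travels with RBP4 in plasma, changed by -0.03 ± 0.10 (adjusted p = 0.898).

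**Figure D2:**
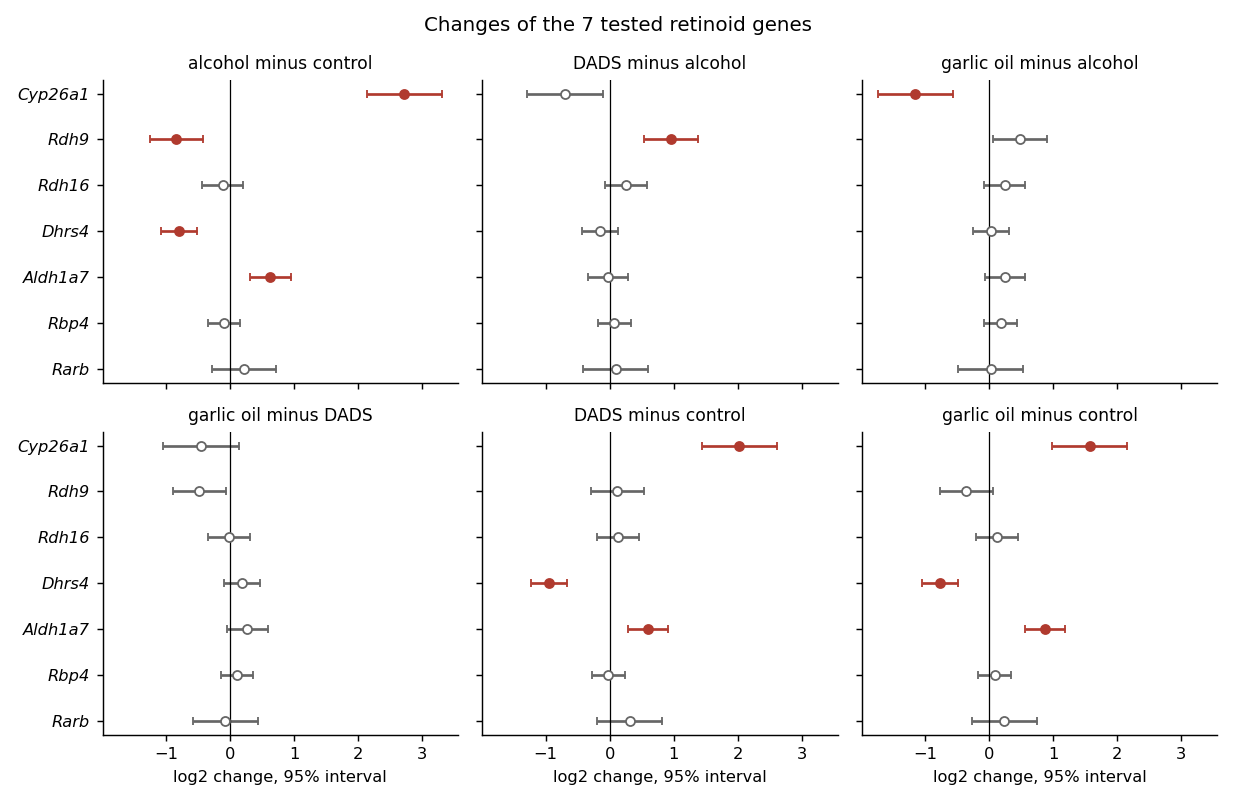
Log2 change of each tested retinoid gene in the 6 comparisons, first-named group minus second, with 95% intervals from limma (n = 4 mice per group). Filled red points passed an adjusted p of 0.05: 4 in alcohol minus control, 1 in DADS minus alcohol, 1 in garlic oil minus alcohol, none in garlic oil minus DADS and 3 in each of the last 2 panels.

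Rarb, the retinoic acid receptor whose gene is itself a receptor target, was near the detection limit with all 3 probes. The brightest probe gave scanner signals of 122.7, 110.1, 150.4 and 111.8 in garlic oil, 146.3, 156.4, 139.4 and 95.4 in DADS and 154.3, 97.7, 133.6 and 133.7 in alcohol mice, against 105.5, 96.5, 139.1 and 118.7 in control mice. It was detected on 3 of 4 arrays in each ethanol-fed group and on 1 of 4 control arrays. Its change in alcohol over control mice was 0.22 ± 0.24 (95% interval -0.29 to 0.72, adjusted p = 0.687), and 0.06 ± 0.25 without the acinar-rich array (adjusted p = 0.949). The second probe, tested in a fit of all 11938 passing probes, was detected on 2 of 4 garlic oil, 4 of 4 DADS and 2 of 4 alcohol arrays, and on 0 of 4 control arrays. Its largest difference was 0.79 ± 0.28 between DADS and control mice (adjusted p = 0.0615), where 16% of all probes changed. The control mean of 5.25 lay under the arrays' detection limits of 5.54 to 5.77, so the size of this difference is uncertain. The third probe was detected on no array, with signals between 64.7 and 106.4.

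Dhrs3, a retinal reductase, and Lrat, which esterifies retinol for storage, were detected on none of the 16 arrays. Dhrs3 gave signals between 68.4 and 101.2, and Lrat between 71.2 and 102.6. Their levels have only an upper bound in every group, and no fold is given for either. Lrat marks stellate cells in liver. Among 20 stellate cell markers with a probe, 9 to 12 were detected on each array, Lrat, Lhx2, Hand2, Gfap, Col1a1, Tagln and Timp1 on none. The summed normalized signal of the 20 was 12450 to 15170 in garlic oil, 10380 to 15460 in DADS and 11290 to 13170 in alcohol mice, against 11170 to 12480 in control mice. Bright markers weigh most in this sum. Of 13 tested in alcohol against control mice, 1 rose and 1 fell, where 1.94% of all genes rose and 1.63% fell. Of these 13, 10 were higher and 3 lower, with a median change of 0.203 beside -0.01 over all genes. Their part in the retinoid values was not tested.

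**Figure D3:**
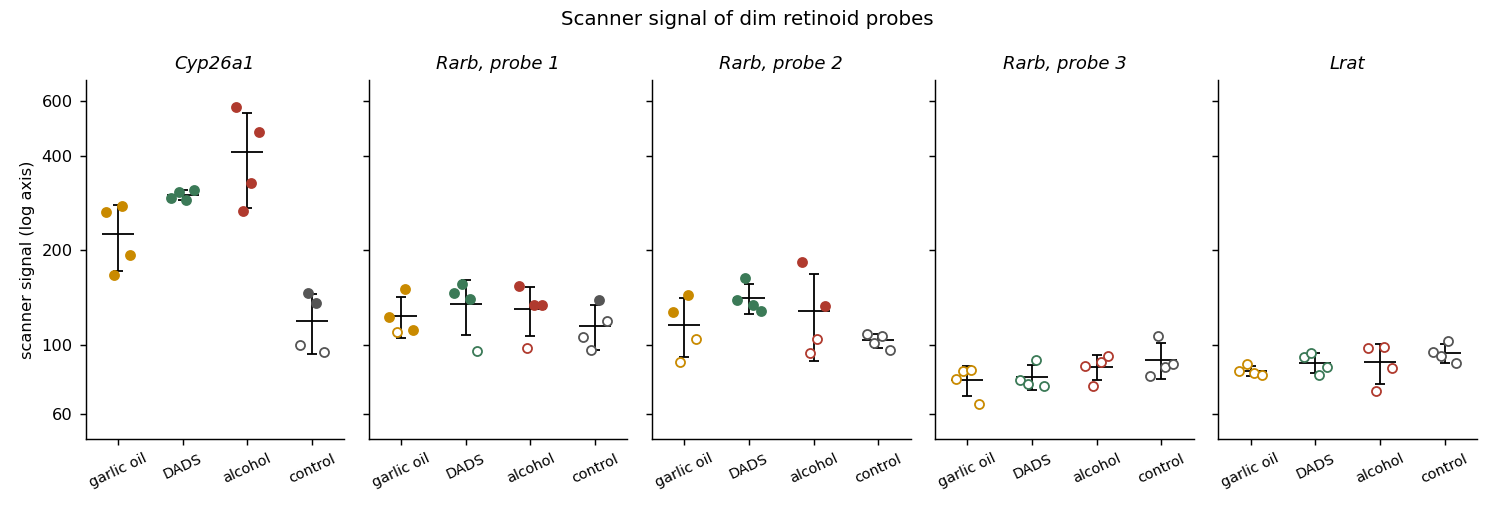
Scanner signal, uncorrected and on a log axis, of the probes of Cyp26a1, Rarb (3 probes, from brightest to dimmest) and Lrat on each array, by group. Points are single mice (filled where detected, open where not) and bars are the mean and SD of 4 mice; Cyp26a1 ran from 266.2 to 572.2 in alcohol mice, while Lrat stayed between 71.2 and 102.6 on all 16 arrays.

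DADS was set against alcohol to ask what the compound changed on the ethanol diet. These groups lay on different chips, so chip and treatment cannot be told apart, and the comparison shares its alcohol mice with the previous and the next one. Of the 7 retinoid genes 1 changed, where 2.84% of all genes changed (1.23% rose). This was Rdh9, at 11.28, 11.26, 11.74 and 11.38 in DADS mice, against 10.54, 10.37, 10.17 and 10.75 in alcohol mice. It alone of the 7 had groups that did not overlap, as did 9.17% of all genes, and the rise was 0.96 ± 0.20 (1.94-fold, adjusted p = 0.0187). It was lost without DADS replicate 3 or alcohol replicate 3, at adjusted p = 0.056 and adjusted p = 0.0565. Without the acinar-rich array it was 0.99 ± 0.22 (adjusted p = 0.034). The level in DADS mice differed from that in control mice by 0.12 ± 0.20 (95% interval -0.30 to 0.53, adjusted p = 0.731).

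Cyp26a1 was lower in DADS than in alcohol mice by an amount that did not pass (-0.70 ± 0.28, adjusted p = 0.183; -0.49 ± 0.28 and adjusted p = 0.384 without the acinar-rich array), and DADS replicate 4 overlapped with alcohol replicate 3. Dhrs4 (-0.15 ± 0.14, adjusted p = 0.592) and Aldh1a7 (-0.03 ± 0.15, adjusted p = 0.957) did not pass, with 95% intervals of -0.44 to 0.13 and -0.34 to 0.29. Kupffer cell markers moved in this comparison: of 8 tested, 7 fell, where 135 of all 8386 genes fell. Also lower were 1 of 2 red cell genes and 1 of 7 endothelial markers that passed. The summed signal of 9 Kupffer cell markers with a probe was 2811 to 7217 in DADS mice, against 8215 to 9758 in alcohol mice. Cd5l was the marker detected on no array. Their part in the retinoid values was not tested.

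Garlic oil was set against alcohol in the same way, again across chips. Of the 7 retinoid genes 1 changed, where 2.02% of all genes changed (1.32% fell). Cyp26a1 fell by 1.15 ± 0.28 (2.22-fold lower in garlic oil mice, adjusted p = 0.0432), and no garlic oil mouse, at most 7.52, reached the lowest alcohol mouse at 7.83. Groups did not overlap for this 1 of the 7 and for 9.04% of all genes. Its call was the least stable of those given here. It was lost when any of 10 single arrays was left out, namely each garlic oil array, alcohol replicates 1, 2 and 4, control replicates 1 and 3 and DADS replicate 3, at adjusted p between 0.0502 and 0.0995 and a fall between 0.944 and 1.25. Without the acinar-rich alcohol array, which had the highest Cyp26a1 level, the fall was 0.944 ± 0.277 (adjusted p = 0.0939). It was also lost with the replicate number as a block (adjusted p = 0.0666) and with these 8 arrays normalized and fitted alone (adjusted p = 0.0835), at a nearly equal size.

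Rdh9 read 10.58, 10.70, 11.55 and 10.92 in garlic oil mice, and garlic oil replicates 3 and 4 lay above every alcohol mouse. Its change over alcohol was 0.48 ± 0.20 and did not pass (adjusted p = 0.204). Dhrs4 (0.03 ± 0.14), Aldh1a7 (0.24 ± 0.15), Rdh16 (0.24 ± 0.16), Rbp4 (0.18 ± 0.12) and Rarb (0.02 ± 0.24) did not pass either, at adjusted p between 0.402 and 0.978. Of 2 red cell genes 1 rose with garlic oil over alcohol, where 58 of all 8386 genes rose.

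Garlic oil and DADS shared a chip and differed in dose as well as in composition. Of the 7 retinoid genes 0 passed in limma between these treatments, where 1.85% of all genes did, and 1 had an unadjusted p under 0.05. All 7 overlapped between the groups, while 8.05% of all genes did not. That gene was Rdh9, lower in garlic oil mice by 0.48 ± 0.20 (95% interval -0.90 to -0.06, adjusted p = 0.226). Cyp26a1 differed by -0.45 ± 0.28 (95% interval -1.04 to 0.13, adjusted p = 0.442). Aldh1a7 differed by 0.27 ± 0.15 and Dhrs4 by 0.18 ± 0.14 (adjusted p = 0.39 and adjusted p = 0.539). The Kupffer cell sum was 7592 to 10820 in garlic oil mice, against 2811 to 7217 in DADS mice. Of 8 tested Kupffer cell markers 4 rose in garlic oil over DADS mice, as did both red cell genes, where 62 of all 8386 genes rose. Their part in the retinoid values was not tested.

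Against control, the same 3 retinoid genes passed in both treated groups, in comparisons that cross chips and share the control mice with the first. With garlic oil, 3 of 7 retinoid genes changed, where 17.9% of all genes did (8.56% rose and 9.29% fell), and with DADS 3 of 7, where 15.9% did (8.48% rose and 7.44% fell). These 3 genes had no overlap with control in either group, as did 24.1% of all genes with garlic oil and 22.8% with DADS. Cyp26a1 rose by 1.57 ± 0.28 with garlic oil (2.97-fold, adjusted p = 0.00129) and by 2.02 ± 0.28 with DADS (4.07-fold, adjusted p = 0.000181), or 2.43-fold and 3.33-fold with undetected control arrays set to their limit. Without background correction the rises were 0.892 with garlic oil and 1.21 with DADS, and both passed (adjusted p = 0.00397 and 0.000504). Dhrs4 fell by 0.77 ± 0.14 with garlic oil (adjusted p = 0.00124) and by 0.95 ± 0.14 with DADS (adjusted p = 0.000239). Aldh1a7 rose by 0.87 ± 0.15 with garlic oil (adjusted p = 0.00113) and by 0.60 ± 0.15 with DADS (adjusted p = 0.0127). Rdh9 did not pass in either (-0.36 ± 0.20 with garlic oil and 0.12 ± 0.20 with DADS, adjusted p = 0.216 and adjusted p = 0.731). Kupffer cell and red cell markers moved too: 7 of 8 tested Kupffer cell markers and both red cell genes fell in DADS against control mice, and 1 of 8 and 1 of 2 rose in garlic oil against control mice. Of other cell types, 2 of 9 hepatocyte and 1 of 13 stellate cell markers rose with garlic oil against control. With each treatment 1 of 7 endothelial markers fell. The Kupffer cell sum was 7592 to 10820 in garlic oil and 2811 to 7217 in DADS mice, against 7139 to 9205 in control mice, and the part of these markers in the retinoid values was not tested. The order of Cyp26a1 means was alcohol, DADS, garlic oil and control, and of its neighbours in that order only garlic oil and control differed beyond the test.

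Of 66 other genes listed for the retinoid pathway, 56 had a probe and 38 were tested. In alcohol over control mice 0 of the 38 rose and 1 fell, where 1.94% of all genes rose and 1.63% fell, with a median change of -0.02 beside -0.01 over all genes. The 1 was Aox3, an aldehyde oxidase that can oxidize retinal, at 13.13 ± 0.47 in alcohol and 14.10 ± 0.11 in control mice (SD, n = 4 each). It fell by 0.97 ± 0.22 (adjusted p = 0.0186), a call lost without control replicate 1 or control replicate 4 (adjusted p = 0.061 and 0.05). Without the acinar-rich array the fall was 1.07 ± 0.23 (adjusted p = 0.021). Aox3 was lower again in DADS than in alcohol mice (-1.01 ± 0.22, adjusted p = 0.0213), and fell by 1.29 ± 0.22 with garlic oil and by 1.98 ± 0.22 with DADS against control. The DADS call against alcohol was lost without alcohol replicates 1, 2 or 3 or DADS replicates 2 or 3, at adjusted p between 0.0538 and 0.0604. It was also lost with these 8 arrays normalized and fitted alone (adjusted p = 0.0929) and with no detection filter (adjusted p = 0.0501). Without the acinar-rich array, alcohol replicate 1, it was -0.91 ± 0.23 (adjusted p = 0.0547).

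Cyp2c39, a P450 reported to hydroxylate retinoic acid in mouse liver, was detected on 2 of 4 garlic oil, 4 of 4 DADS and 1 of 4 alcohol arrays, and on 0 of 4 control arrays. It met the detection filter of 4 arrays only through the DADS arrays, where it was highest, so its DADS rises are not independent of that filter. Cyp2c39 rose by 1.10 ± 0.20 in DADS over alcohol mice (adjusted p = 0.00787), and by 1.06 ± 0.22 without the acinar-rich array (adjusted p = 0.0242). The rise was 1.61-fold when undetected alcohol arrays were set to their detection limit, and 0.57 on the log2 scale without background correction (adjusted p = 0.0162). Tgm2, a transglutaminase induced by retinoic acid in several cell types, was 12.14 ± 0.16 in garlic oil mice, against 12.74 ± 0.11 in alcohol mice (SD, n = 4 each). It fell by 0.60 ± 0.14 with garlic oil (adjusted p = 0.038), and this call was lost when any of 8 single arrays was left out: garlic oil replicates 2, 3 and 4, alcohol replicates 2, 3 and 4, and control replicates 2 and 4, at adjusted p between 0.0522 and 0.0937. It was also lost with these 8 arrays normalized and fitted alone (adjusted p = 0.107), in the authors' deposited normalized table (adjusted p = 0.0534), with the replicate block (adjusted p = 0.0583) and with median scaling, where it was -0.39 (adjusted p = 0.145). Without the acinar-rich array it was -0.66 ± 0.15 (adjusted p = 0.0432). In alcohol over control mice Tgm2 changed by 0.14 ± 0.14 (adjusted p = 0.649). Retinoic acid receptor genes were mostly dim: Rara was under the filter, and Rxra, the common partner of the receptors, changed by -0.33 ± 0.16 in alcohol over control mice (adjusted p = 0.303). Of the enzymes listed for oxidation or reduction of retinol and retinal, Adh1 (0.30 ± 0.16), Adh4 (-0.17 ± 0.17) and Rdh11 (-0.31 ± 0.24) did not pass in alcohol over control mice. Retsat, which saturates retinol, read -0.50 ± 0.16 (adjusted p = 0.0984). It passed with array weights (-0.558, adjusted p = 0.0386) and with the replicate block (-0.504, adjusted p = 0.0402).

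**Figure D4:**
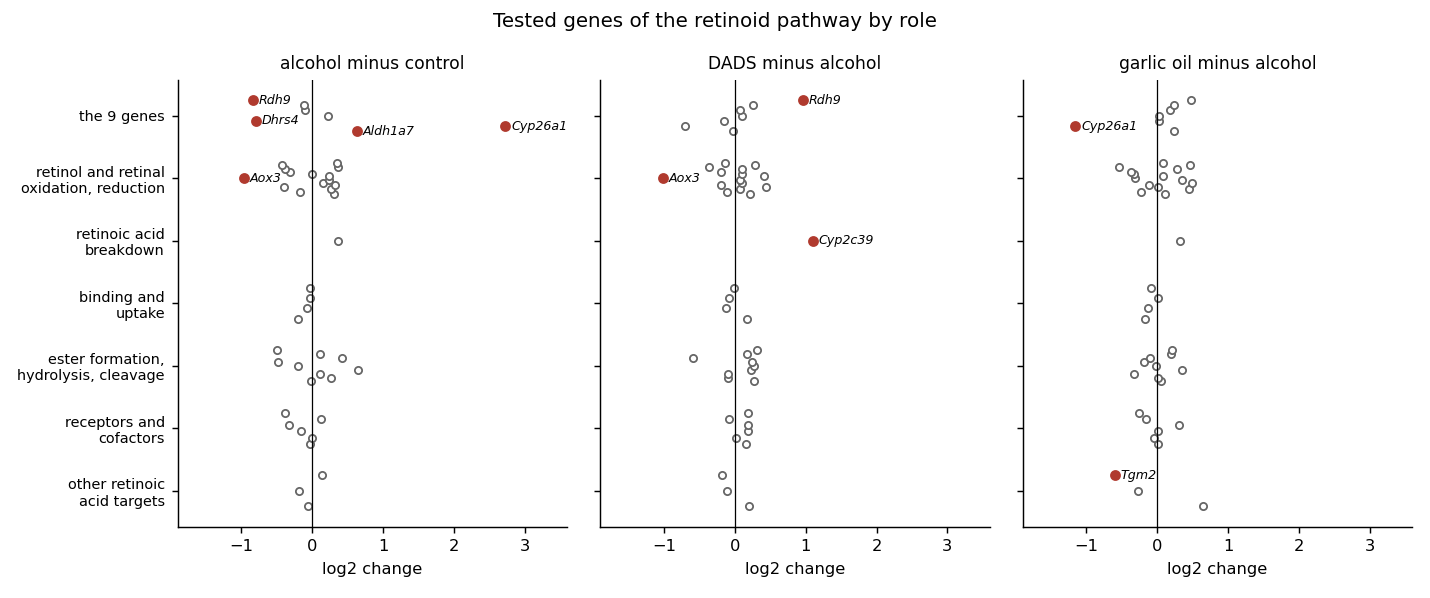
Log2 change of every tested gene of the retinoid pathway by role, in alcohol minus control, DADS minus alcohol and garlic oil minus alcohol; each point is 1 gene and red points with names passed an adjusted p of 0.05. Outside the 9 genes, the named points are Aox3, Cyp2c39 and Tgm2, and the binding and ester groups held none.

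Among the 38 tested pathway genes outside the 9, 4 rose and 5 fell with garlic oil against control, where 8.56% of all genes rose and 9.29% fell. With DADS against control 4 rose and 1 fell, where 8.48% of all genes rose and 7.44% fell. With garlic oil the risen genes were Ces1g, an esterase (0.99 ± 0.25), Cyp2c39, Rarres2, which encodes chemerin (0.59 ± 0.17), and Aox1 (0.58 ± 0.17, detected on 1 of 4 control arrays). The fallen genes were Aox3, Lipe, a hormone-sensitive lipase that hydrolyses retinyl esters (-0.67 ± 0.16), Rxrg, a retinoid X receptor (-0.64 ± 0.13), Tgm2 (-0.47 ± 0.14) and Tgfb2 (-0.46 ± 0.13, detected on 1 of 4 garlic oil arrays). With DADS the risen genes were Cyp2c39, Ces1g (0.87 ± 0.25), Dhrs7, a short-chain dehydrogenase (0.65 ± 0.14), and Adh1 (0.52 ± 0.16), and Aox3 fell. Cyp2c39, which met the detection filter only through its DADS arrays, was detected on no control array, at a measured mean of 4.93. It was at least 1.59-fold higher with DADS, at a mean of 6.40 (adjusted p = 0.000138). With garlic oil its mean of 5.63 lay under the mean detection limit of the control arrays, so no fold is given (adjusted p = 0.0222). With undetected arrays at their limit, Aox1 was 1.16-fold higher in garlic oil mice and Tgfb2 1.30-fold higher in control mice. Of these, Ces1g, Aox1, Rarres2, Tgfb2, Adh1, Tgm2 and the garlic oil value of Cyp2c39 each lost a call without some single array, at adjusted p between 0.0502 and 0.104. With garlic oil these arrays were control replicate 2 or garlic oil replicate 4 for Ces1g, and control replicate 1 or garlic oil replicates 2 or 3 for Cyp2c39. For Rarres2 they were control replicates 1, 3 or 4 or garlic oil replicate 4, and for Aox1 control replicates 1, 2 or 3 or garlic oil replicates 2 or 3. For Tgm2 they were control replicates 3 or 4 or garlic oil replicates 2, 3 or 4, and for Tgfb2 control replicates 2 or 3 or garlic oil replicates 2 or 3. With DADS they were control replicates 1 or 2 or DADS replicate 3 for Ces1g, and control replicates 2, 3 or 4 or any DADS array for Adh1. With no detection filter the DADS calls of Adh1 (adjusted p = 0.0602) and Ces1g (adjusted p = 0.0649) were lost. With median scaling the garlic oil calls of Tgm2 (-0.32, adjusted p = 0.133) and Tgfb2 (-0.41, adjusted p = 0.0609) were lost, and that of Tgfb2 also without background correction (-0.22, adjusted p = 0.0624). Control mice and the treated mice lay on different chips here too.

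The tested genes whose values over the 16 arrays were most like those of Cyp26a1 were Adam11 (Pearson r = 0.904), Rhbg, an ammonia transporter (r = 0.866), and Gstm1, a glutathione S-transferase (r = 0.84). These values rest largely on the 4 group means: the deviations of single mice from their group means correlated at 0.343, 0.24 and -0.243 with those of Cyp26a1. For Rdh9 the most alike were Ints7 (r = 0.824), Cyp2d26 (r = 0.809) and Lig3 (r = 0.789), with 0.743, 0.71 and 0.447 for the deviations. For Aldh1a7 they were Ccl9 (r = 0.915), Aldh1l1 (r = 0.897) and Psmd14 (r = 0.86), with 0.737, 0.775 and 0.4 for the deviations. Among the 9 genes themselves, Cyp26a1 and Dhrs4 ran opposite over the arrays (r = -0.744) but not among mice of a group (0.211), and Rdh9 and Rdh16 shared little of either (0.368 and 0.185). The arrays share their normalization and chips, and these correlations are descriptions.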

How the data were processed

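Raw files hold, per the file headers, 1 bead intensity per probe and a detection p-value over negative controls; the deposited intensity is linear, with background not subtracted. The deposited table of all samples holds linear intensity normalized by the authors, by a method not given in the sources used here; the tools listed are GenomeStudio, lumi and limma, with no version, per the submitters' processing notes. RNA (500 ng per mouse) came from TRIzol extracts of frozen liver, per the labels' protocols.

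Intensities were background-corrected, quantile-normalized and log2-transformed with limma 3.58.1 in R 4.3.3 (neqc, offset 16). A probe was kept where 4 or more of the 16 arrays had a detection p under 0.05 (11938 probes), and the brightest probe stood for its gene (8386 genes). Gene names are the platform annotation's: 23978 probes had 1 symbol, 0 several and 1719 none. All 16 arrays entered 1 limma fit with 4 group means and two-sided moderated tests, adjusted by Benjamini-Hochberg over all genes. The members, pathway lists and markers were chosen with earlier results of these data known. Named genes were all 9 members, pathway genes that passed, 10 fixed pathway genes whatever their values (1 is not reported here), and the 3 genes most correlated with a member. The fold with undetected control arrays at their limit used, per array, the lowest normalized value among detected probes. Promoter windows matched all 9 symbols in the RefSeq table. On simulated data for alcohol against control with 8386 genes, 27.8%, 92.5% and 99.7% of log2 changes of 0.5, 1 and 2 were recovered, with 5.79% of calls false. The simulated noise was normal and independent between genes, with no chip or position effect and no acinar-rich array. These rates therefore need not hold for the real arrays.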

Additional observations from a re-analysis of the deposited data

Results flagged for a closer look

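Of 28 sets of 4 mice examined (7 genes in 4 groups), 1 held a mouse far from the others, where chance alone gives about 1 in 20. Rarb in DADS replicate 4 read 5.168 on the log2 scale, against 6.053 for the nearest DADS mouse, with a gap of 0.912 of the group's range. The probe was not detected on that array (scanner signal 95.4), while the second Rarb probe was detected there (127.8).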

How the results depend on the processing

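The counts of changed retinoid genes in DADS against control (3), garlic oil against control (3) and garlic oil against DADS (0) stayed within 1.5 times under all alternatives, as did those in alcohol against control (4) and DADS against alcohol (1) apart from single arrays left out. Leaving out 1 array gave between 2 and 4 for alcohol against control, with 2 without alcohol replicate 3, control replicate 1 or control replicate 4, and between 0 and 1 for DADS against alcohol and for garlic oil against alcohol. For garlic oil against alcohol the count of 1 became 0 with 2 groups normalized and fitted alone, array weights, the authors' deposited normalized table, median scaling, no detection filter and the replicate block. The cause was not tested. The replicate block changed no other member's call; same-numbered mice showed no steady pairing, with correlations of their deviations between -0.367 and 0.404.

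Of 12 member changes that passed, 283 of 312 recomputed values kept their call, 29 lost it and 0 changed sign. Of 30 that did not pass, 22 of 780 values changed sign and 1 passed (Rdh9 in garlic oil against control, without garlic oil replicate 3, at adjusted p = 0.0398). Median scaling moved the median of all genes by 0.16 in DADS against alcohol, 0.18 in DADS against control and 0.117 in garlic oil against control, and turned Aldh1a7 (0.195) and Dhrs4 (0.0677) in DADS against alcohol and Rbp4 in DADS against control (0.101; 0.0224 in the authors' deposited normalized table) upward. Rarb in garlic oil against alcohol was -0.0178 with array weights. With 1 array left out, some changes turned sign, and their ranges over all 16 such runs follow. Aldh1a7 in DADS against alcohol lay between -0.118 and 0.0437, and Dhrs4 in garlic oil against alcohol between -0.0587 and 0.139. Rarb lay between -0.0354 and 0.325 in DADS against alcohol and between -0.112 and 0.176 in garlic oil against alcohol. In garlic oil against DADS, Rarb lay between -0.306 and 0.0218, and Rdh16 between -0.13 and 0.116. Rbp4 in DADS against control lay between -0.0713 and 0.0291, and Ttr in alcohol against control between -0.0635 and 0.0283.
Counts of all changed genes ranged over the alternatives from 132 to 669 around 300 in alcohol against control, 61 to 775 around 238 in DADS against alcohol, 26 to 215 around 169 in garlic oil against alcohol, 39 to 237 around 155 in garlic oil against DADS, 888 to 1996 around 1335 in DADS against control and 908 to 2110 around 1497 in garlic oil against control. Signal near background limits Cyp26a1 in control mice and Rarb in all groups, and Dhrs3 and Lrat give no level.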
